A study of Homo sapiens with 15 samples.

Results

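The response of A2058 cells to NP, metformin and phenformin was followed in 8 transcripts to which the array gives no gene symbol. They were picked by name from the earlier results of these arrays, because they were higher in NP-treated than in DMSO-treated cells or higher in phenformin-treated than in water-treated cells, and each is read by 1 probe. They make up 8 of the 26824 features tested, of which 10240 carried no symbol. Of these, 6 have names that begin with lnc-, the form used in a catalogue of long noncoding RNAs, in which the name is built from a gene beside the transcript. These are lnc-CHADL-1:1, lnc-BBC3-1:1, lnc-EXOC2-9:1, lnc-RNF13-2:1, lnc-RP11-597K23.2.1-2:1 and lnc-RP11-293M10.1.1-1:1, and the middle of the last pair of names is a clone name rather than a gene symbol. XR_110828 has the form of a RefSeq predicted noncoding RNA, and TCONS_l2_00028188 that of a transcript assembled from RNA sequencing.

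A2058 is an established human melanoma cell line. The cells were exposed for 8 hours to NP at 3 µM, to metformin (MET) at 5000 µM or to phenformin (PHEN) at 50 µM. The labels call the compound NP and the series title names neopetasin, whereas the paper reports treatment of A2058 with petasin (PT). The paper treats petasin and neopetasin as different compounds of the extract, and which of them was used could not be settled here. The label NP is kept. NP was dissolved in DMSO and the biguanides metformin and phenformin in water (W). Therefore NP was compared with DMSO and the biguanides with water. The series describes 3 independent experiments, with 1 array for each of the 5 groups in each experiment.

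The doses differ between the compounds, and their effects are therefore given side by side and not ranked. Metformin and phenformin were both compared with the same 3 water arrays, so those comparisons share any deviation of these arrays. Total RNA was labelled with a single dye, and a level below is the log2 intensity of a probe relative to the 75th percentile of its array. A probe was said to be above background where the extraction software flagged it as well above background. Levels are not set against each other between transcripts, since probes differ in how strongly they bind.

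Many long noncoding RNAs lie next to, or within, protein-coding genes, and some act on their neighbours whereas others are transcribed with no known function. Inhibitors of mitochondrial respiration are known to activate the integrated stress response, in which phosphorylation of the translation factor eIF2α favours translation of the transcription factor ATF4. ATF4 then induces genes of amino acid synthesis and transport, redox control and, under lasting stress, apoptosis.

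The arrays of the NP experiment and those of the biguanides lay on separate slides. DMSO and NP replicates 1 and 2 shared a slide and their replicate 3 lay on another, and the same held for the water, metformin and phenformin arrays on a further pair of slides. The DMSO and NP arrays had 25799 to 31925 probes above background and the water, metformin and phenformin arrays 31407 to 45007. Slide and solvent cannot be told apart, and each treatment is therefore read against its own vehicle on the same slides. Of 8 melanocytic lineage genes, 7 were above background on all 15 arrays (TYR on 13), as were all 4 neural crest and invasive melanoma genes. Markers of other cell types were also above background on all 15 arrays, namely 3 of 5 fibroblast genes (COL1A1, LUM and PDGFRB), 1 of 3 keratinocyte genes (KRT14, with KRT5 and CDH1 on 0), 3 of 3 endothelial genes and 2 of 4 leukocyte genes (PTPRC and CD14), so detection alone does not set the lineage apart. In RNA from a whole culture, fewer cells that hold a transcript and less of it per cell cannot be told apart.

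**Figure D1:**
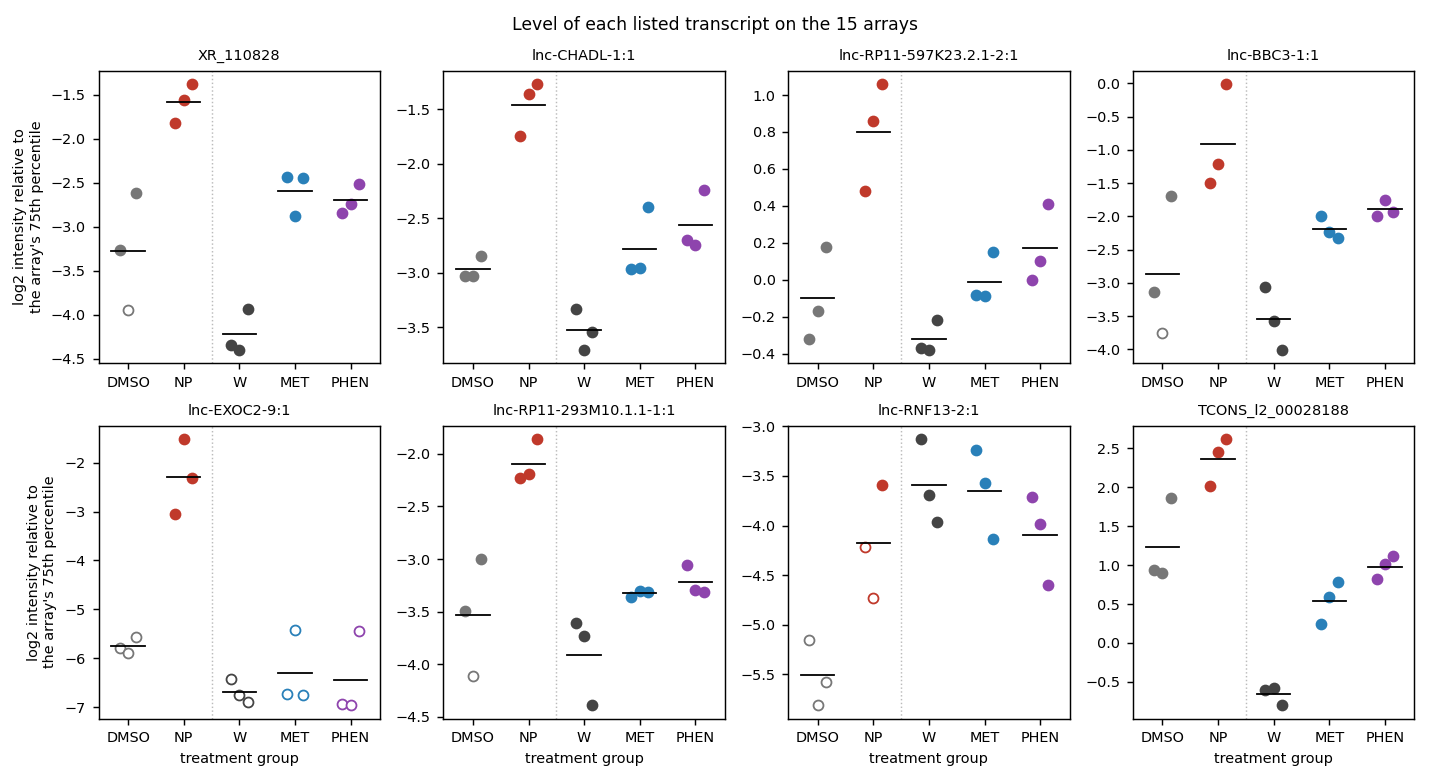
Level of the 8 transcripts without a symbol on each array (log2 intensity relative to the array's 75th percentile), by treatment group; filled points are above background, open points are not, the horizontal bar is the mean of 3 arrays, and the dotted line parts the DMSO set from the water set. NP lies above DMSO in all 8 panels, although for lnc-RNF13-2:1 only 1 NP array and 0 DMSO arrays were above background. With metformin or phenformin lnc-EXOC2-9:1 and lnc-RNF13-2:1 show no such shift.

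In NP-treated cells the probe intensity of all 8 transcripts was higher than in DMSO-treated cells. For lnc-RNF13-2:1 this is no measured difference, as 0 DMSO arrays and 1 NP array were above background. For each of the 8, the 3 NP arrays lay above the 3 DMSO arrays. Over all features with values, the same separation was found for 3.02%, but because the transcripts were chosen from this contrast nothing is read from their count. In metformin-treated cells 6 of the 8 had all 3 arrays above all 3 water arrays, against 3.48% of features. This count is not free of the choice, because phenformin, used in choosing the transcripts, was compared with the same water arrays. In phenformin-treated cells the count was also 6 of 8, beside 3.83% of features, but phenformin too was among the contrasts used in the choice and nothing is read from it. With each biguanide the exceptions were lnc-EXOC2-9:1 and lnc-RNF13-2:1. The median log2 difference of the 8 was 1.47 for NP minus DMSO, 0.67 for MET minus W and 0.83 for PHEN minus W, beside -0.01, 0 and -0.03 over all 26824 features. With lnc-EXOC2-9:1 at its lower bound and lnc-RNF13-2:1, which has none, set to 0, the NP median was 1.45. The size depended on the background correction: with the normexp model and an offset of 50 the 3 medians were 0.73, 0.25 and 0.39.

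XR_110828 was higher than its vehicle on the arrays of all 3 treatments. Its level was -3.27, -3.95 and -2.62 on DMSO arrays 1 to 3 and -1.82, -1.56 and -1.38 on the NP arrays. On the water arrays it was -4.34, -4.40 and -3.93, on the metformin arrays -2.44, -2.88 and -2.45, and on the phenformin arrays -2.85, -2.74 and -2.51. No treated array overlapped its own vehicle. The transcript was thus 3.23-fold higher with NP, with log2 differences of 1.23 to 2.39 over the replicate pairs, although DMSO array 2 was not above background. With phenformin it was 2.88-fold higher, with pair differences of 1.42 to 1.66.

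The metformin contrast was not used to choose the transcripts, and here XR_110828 was 3.1-fold higher (log2 difference 1.63 ± 0.21, SE, n = 3 arrays per group). The unadjusted p was 1.34e-05 and limma's adjusted p over all features 0.204, so it did not pass. The differences were 1.90 and 1.52 within the first slide and 1.48 within the second.

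TCONS_l2_00028188 was above background on all 15 arrays. In DMSO its level was 0.94, 0.90 and 1.86, and in NP 2.02, 2.46 and 2.62. In water it was -0.60, -0.58 and -0.80, in metformin 0.25, 0.59 and 0.79, and in phenformin 0.82, 1.01 and 1.12. Every treated array again lay above all arrays of its vehicle. The fold was 2.20 with NP and 3.12 with phenformin, with pair differences of 0.76 to 1.55 and of 1.42 to 1.92.

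With metformin TCONS_l2_00028188 was 2.30-fold higher (log2 difference 1.20 ± 0.20, SE, n = 3), with an unadjusted p of 0.00014 and an adjusted p of 0.496 by limma. The pair differences were 0.85 and 1.17 on the first slide and 1.60 on the second. Its DMSO arrays were all above its water arrays, by 1.89 on the log2 scale, a difference between vehicles that exceeds each of its NP pair differences.

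lnc-BBC3-1:1 takes its name from BBC3, which encodes PUMA, a BH3-only protein that promotes apoptosis. Its level was -3.13, -3.75 and -1.69 in DMSO and -1.5, -1.22 and -0.01 in NP. In water it was -3.06, -3.58 and -4.01, in metformin -1.99, -2.24 and -2.33, and in phenformin -1.99, -1.75 and -1.93. The DMSO arrays were the most scattered (SD 1.06), with replicate 3 far above the other two and replicate 2 not above background, and replicate 3 of NP was also the highest of its group. Compared within pairs, the NP arrays were higher by 1.63, 2.54 and 1.68, a mean fold of 3.86. Phenformin-treated cells had 3.16 times the intensity of water-treated cells.

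For metformin lnc-BBC3-1:1 was 2.57-fold higher (log2 difference 1.36 ± 0.48, SE, n = 3), with an unadjusted p of 0.0168 and an adjusted p of 1 by limma. The pairs differed by 1.07 and 1.34 on the first slide and by 1.68 on the second. All 3 metformin arrays were above the 3 water arrays, but the spread that limma estimated over the 15 arrays was wide for this probe.

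lnc-CHADL-1:1 is named for CHADL, which encodes a chondroadherin-like protein of the extracellular matrix. Its level was -3.03, -3.03 and -2.85 in DMSO and -1.75, -1.36 and -1.27 in NP, above background throughout. In water it was -3.33, -3.71 and -3.54, in metformin -2.97, -2.96 and -2.40, and in phenformin -2.70, -2.75 and -2.24. The groups did not overlap in any of the 3 comparisons. The fold was 2.85 with NP (pair differences 1.28 to 1.67) and 1.96 with phenformin (0.64 to 1.30). With metformin it was 1.69 (log2 difference 0.75 ± 0.16, SE, n = 3), with an unadjusted p of 0.000748 and limma's adjusted p at 1. The metformin pairs differed by 0.36 and 0.75 on the first slide and by 1.14 on the second.

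lnc-RP11-597K23.2.1-2:1 showed small but regular differences. It measured -0.32, -0.17 and 0.18 in DMSO and 0.48, 0.86 and 1.06 in NP. In water it measured -0.37, -0.38 and -0.22, in metformin -0.08, -0.09 and 0.15, and in phenformin 0, 0.10 and 0.41. In each experiment the treated array exceeded its vehicle, and the folds were 1.87 with NP and 1.41 with phenformin. The metformin fold was 1.24 (log2 difference 0.31 ± 0.11, SE, n = 3), with an unadjusted p of 0.0139 and limma's adjusted p at 1, and the pairs differed by 0.28, 0.29 and 0.37.

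lnc-RP11-293M10.1.1-1:1 was at -3.49, -4.11 and -3 in DMSO and at -2.23, -2.19 and -1.86 in NP. It was at -3.61, -3.73 and -4.39 in water, at -3.36, -3.30 and -3.31 in metformin and at -3.06, -3.29 and -3.31 in phenformin. The NP arrays stood clear of DMSO, of which array 2 was not above background, while the biguanide arrays lay just above the highest water array. The fold was 2.71 with NP and 1.61 with phenformin. The metformin fold was 1.5 (log2 difference 0.59 ± 0.27, SE, n = 3), with an unadjusted p of 0.0539 and limma's adjusted p at 1, and the pairs differed by 0.25, 0.43 and 1.08.

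lnc-EXOC2-9:1, named for the exocyst subunit gene EXOC2, was above background only on the 3 NP arrays. Its level there was -3.05, -1.52 and -2.31, against -5.79, -5.90 and -5.56 on the DMSO arrays. Since no DMSO array was above background, the DMSO level is a limit. Set against the lowest signal that counted as above background on each DMSO array, NP was at least 2.76-fold higher. This bound holds only for the scaling used here. With normexp correction, whose offset compresses low signals, the log2 difference was 0.78, less than the bound. The probe entered the fit only through the NP arrays, where it was high. On the 9 arrays of the water set the values ranged from -6.96 to -5.42, with the groups overlapping, and no fold can be given. The fit for metformin gave a log2 difference of 0.39 with a 95% confidence interval of -0.68 to 1.45 and limma's adjusted p at 1, all of it among values not well above background.

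lnc-RNF13-2:1 takes its name from RNF13, which encodes an endosomal ubiquitin ligase, and behaved unlike the other listed transcripts. Its level was -5.15, -5.81 and -5.58 in DMSO and -4.22, -4.73 and -3.59 in NP, but it was above background on 0 of the DMSO arrays and on 1 NP array (replicate 3). Only the probe intensities can be compared here, and no fold is given for NP, since the limit on the DMSO arrays is above the NP mean. In the water set all 9 arrays were above background. There the level was -3.13, -3.69 and -3.96 in water, -3.24, -3.57 and -4.14 in metformin and -3.71, -3.98 and -4.60 in phenformin. Phenformin was lower than water in all 3 pairs (-0.58, -0.29 and -0.64), although the groups overlapped. The mean phenformin difference of -0.51 was -0.09 with normexp, -0.17 with quantile normalization and -0.25 in the authors' normalized table. Lower values with phenformin were common among lnc- features, of which 850 of 3410 had a positive difference (median -0.14). Metformin minus water was -0.06 (95% confidence interval -0.74 to 0.62, limma's adjusted p 1). All 3 water arrays were above all 3 DMSO arrays, by 1.92 in the mean (DMSO minus W -1.92). More probes were above background on the water arrays. The lowest signal that counted as above background was -4.36 to -3.30 on the DMSO arrays and -4.99 to -4.78 on the water arrays. The other listed transcripts had a positive DMSO minus W, from 0.22 to 1.89, though lnc-EXOC2-9:1 was above background on 0 arrays of either vehicle. What part detection had in the DMSO minus W of lnc-RNF13-2:1 was not tested.

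**Figure D2:**
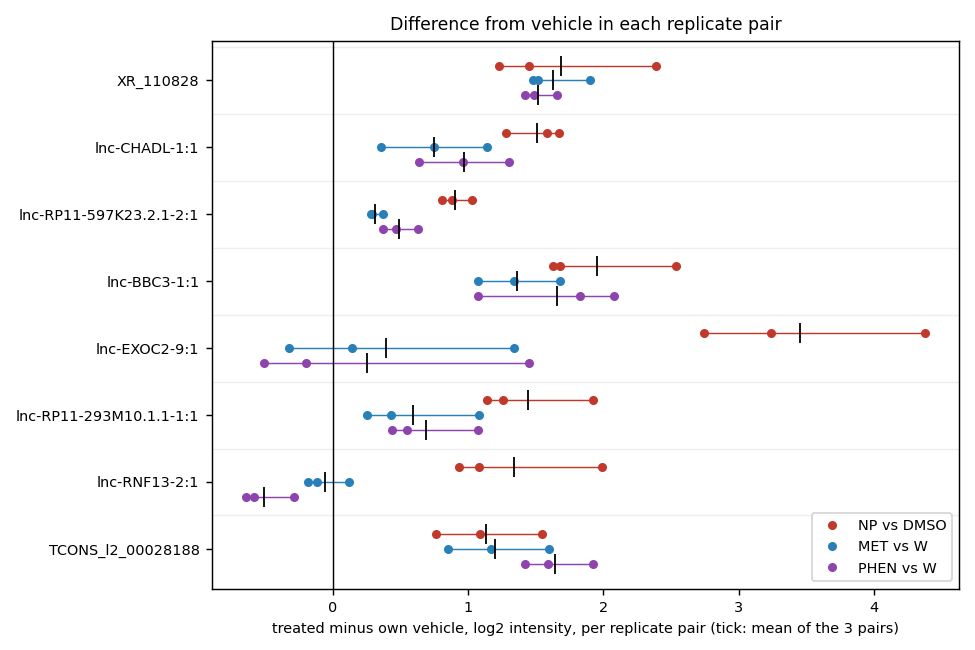
Difference between treated and vehicle arrays of the same replicate number for the 8 transcripts (x axis, log2 intensity), with 1 point per replicate pair, a black tick at the mean of 3 pairs and a line over their range; NP vs DMSO, MET vs W and PHEN vs W are in red, blue and purple. Points for NP are all above 0, although for lnc-RNF13-2:1 only 1 NP array and 0 DMSO arrays were above background. With the biguanides lnc-EXOC2-9:1 and lnc-RNF13-2:1 straddle or fall below 0, at levels that for lnc-EXOC2-9:1 were not well above background.

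A call required an adjusted p of at most 0.05 and at least a 1.5-fold difference. For metformin, 0 of the 8 transcripts passed, as did 0 of all features (0% called). At an unadjusted p of at most 0.05, 5 of the 8 were higher with metformin (XR_110828, TCONS_l2_00028188, lnc-BBC3-1:1, lnc-CHADL-1:1 and lnc-RP11-597K23.2.1-2:1), against 1.38% of all features. Because phenformin was among the contrasts used in choosing them and shares its water arrays with metformin, that count is not free of the choice.

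With the replicate block within vehicle sets, 52 features were called with NP in place of 10, and 2 with metformin in place of 0. Of the 10 features called higher with NP (0.0373% of those tested), 3 had no symbol, and these were XR_110828, lnc-CHADL-1:1 and lnc-RP11-597K23.2.1-2:1. The other 7 included NUPR1, SESN2, TRIB3 and GDF15, all known to be induced in stress. With phenformin 7 features were called (0.0261%), of which TCONS_l2_00028188 was higher and the unnamed probe A_33_P3408227 lower by 1.41 on the log2 scale, again beside NUPR1, SESN2, CHAC1 and ASNS. The calls on members restate the choice and carry no test. Over the 10240 features without a symbol the median log2 difference was 0, 0.03 and -0.10 for NP, metformin and phenformin, beside -0.02, -0.01 and -0.01 over the 16584 with one.

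In size, the listed transcripts were not simply the largest differences among those without a symbol. Of 10001 such features (those with a RefSeq mRNA accession left out) ordered by NP minus DMSO, lnc-EXOC2-9:1 came first by intensity, but its DMSO level is only a limit, so that place is not a measured one, and the same holds for lnc-RNF13-2:1. Of the rest, lnc-BBC3-1:1 stood at place 13, XR_110828 at 27 and lnc-CHADL-1:1 at 40, while lnc-RP11-597K23.2.1-2:1 stood at place 253. Places 2 to 6 were taken by XR_171034, lnc-SMARCAL1-2:3, lnc-RP11-181C3.1.1-1:5, lnc-USP35-1:9 and TCONS_l2_00001904, with log2 differences of 2.43 down to 2.09, but each was above background on only 1 NP array and on 0 DMSO arrays. For phenformin lnc-BBC3-1:1 and TCONS_l2_00028188 were first and second, at 1.66 and 1.64. They were followed by the unlisted ENST00000518311 at 1.60 and ENST00000511103 at 1.57, both above background on all 6 arrays, and then by XR_110828 at 1.52.

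The genes in the names, and the genes around them, were examined next. The array files hold no positions for these probes. Neighbours were therefore the 3 nearest genes with a probe on the array, on each side of the gene in the name. The RefSeq annotation (GRCh38.p14) was used only for order, and genes without a probe were passed over. Whether each transcript lies beside the gene in its name was not checked. This gave 28 genes for 4 transcripts, of which 24 had a tested feature. By limma 0 of the 24 were called with NP, metformin or phenformin. At an unadjusted p of at most 0.05, 2 were higher and 1 lower with NP, 1 higher and 1 lower with metformin, and 1 higher and 0 lower with phenformin, beside 4.69%, 2.46% and 2.35% of all features in either direction. Their median log2 differences were -0.03, 0.04 and 0.03, beside -0.01, 0 and -0.03 over all features. The remaining 4 transcripts have no gene in their name, and no neighbours were drawn for them.

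BBC3 was the gene that was higher in all 3 comparisons at an unadjusted p of at most 0.05, without passing the adjusted test. Its level was 2.23, 2.15 and 2.89 in DMSO and 2.54, 2.69 and 3.48 in NP. In water it was 2.03, 2.04 and 2.16, in metformin 2.48, 2.46 and 2.5, and in phenformin 2.44, 2.44 and 2.60. Both biguanide groups lay clear of water, whereas NP overlapped with DMSO through DMSO replicate 3, the same array on which lnc-BBC3-1:1 was highest. The log2 difference was 0.48 ± 0.18 (SE, n = 3) with NP, 0.40 ± 0.18 with metformin and 0.42 ± 0.18 with phenformin, and limma's adjusted p was 0.973, 1 and 1. For NP the adjusted p was 0.0584 with the replicate block within vehicle sets and 0.0418 with slide as a further term, and the gene then stayed uncalled because the difference was under 1.5-fold. All 9 pairs were higher in the treated array. On the same scale lnc-BBC3-1:1 differed by 1.95, 1.36 and 1.66. The nearest genes with a probe on either side of BBC3, SAE1 and CCDC9, did not pass in any comparison.

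CHADL differed by 0.11, 0.26 and 0.12 with NP, metformin and phenformin, each with an SE of 0.29 and limma's adjusted p at 1. lnc-CHADL-1:1 differed by 1.51, 0.75 and 0.97. EXOC2 differed by 0.02, 0.16 and 0.12 (SE 0.22, adjusted p 1), with a 95% confidence interval for NP of -0.46 to 0.50. In the scaling used here lnc-EXOC2-9:1 was at least 2.76-fold higher with NP, but with normexp its log2 difference was 0.78, below that bound. RNF13 differed by 0.08, -0.21 and -0.11 (SE 0.13, adjusted p 1). For these 3 genes no difference passed the test, and the intervals leave room for small shifts in either direction.

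The other neighbours with an unadjusted p of at most 0.05 were HUS1B beside EXOC2, C5AR1 near BBC3 and ZC3H4 near BBC3. HUS1B, related to the checkpoint gene HUS1, had a log2 difference of -0.66 with NP (SE 0.15, limma's adjusted p 0.333). C5AR1, the receptor of complement C5a, was above background on 0 DMSO arrays and 2 NP arrays (limma's adjusted p 0.973 with NP). The mean of its NP arrays was 1.47-fold above the limit on the DMSO arrays. That mean includes an NP array not above background, so 1.47 is no strict lower bound. With normexp the log2 difference of C5AR1 with NP was 0.21, which is smaller. ZC3H4 had a difference of -0.27 with metformin (SE 0.12, adjusted p 1).

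**Figure D3:**
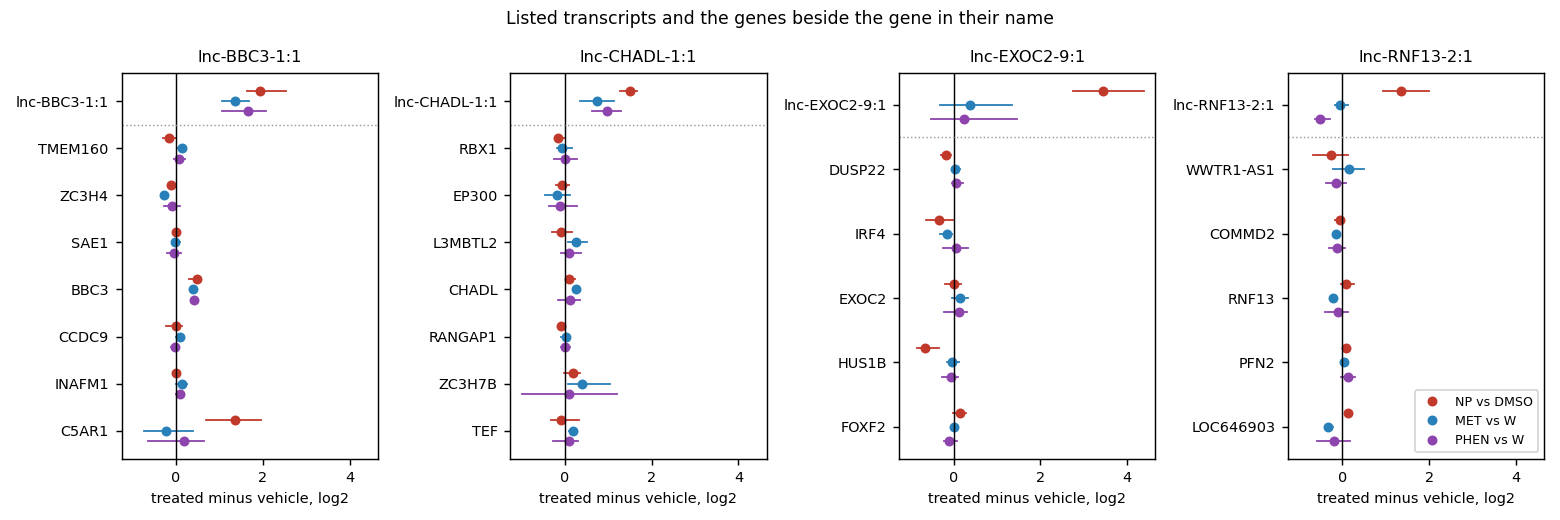
Log2 difference from vehicle (x axis) for 4 lnc- transcripts, in the top row of each panel, and for the tested genes around the gene in their name in RefSeq order; points are means of 3 pairs, lines span the lowest to the highest pair, and colours mark NP vs DMSO (red), MET vs W (blue) and PHEN vs W (purple). BBC3 lies at 0.40 to 0.48 in all 3 comparisons, whereas CHADL, EXOC2 and RNF13 lie between -0.21 and 0.26.

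Other probes whose names share a gene with the listed transcripts gave different values. lnc-CHADL-1:2, a second transcript of the lnc-CHADL-1 locus by its name, differed by -0.15, 0.16 and -0.04 and was above background on 10 of 15 arrays. Only 1 DMSO array and 1 NP array were among these, and its NP pairs were 0.67, -1.94 and 0.81. Its NP value is thus no measured difference. lnc-CHADL-2:1, above background on all 15 arrays, differed by 0.42 with NP, -0.11 with metformin and -0.48 with phenformin. lnc-RNF13-2:2, the second transcript of its locus, was also above background on all arrays and differed by 0.08, 0.09 and -0.16. The probe intensity of lnc-RNF13-2:1 had been higher with NP in all 3 pairs, mostly at levels not above background. The probes named for EXOC2 other than lnc-EXOC2-9:1 were above background on 0 to 5 of 15 arrays. For lnc-CHADL-1:2, lnc-CHADL-2:1 and lnc-RNF13-2:2, which entered the fit, no comparison passed, with limma's adjusted p at 1 in each.

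The listed transcripts were then related to stress genes of the same cells. Of 30 genes known as ATF4 targets or partners, 29 were tested, and 5 were called higher with NP, 0 with metformin and 5 with phenformin by limma, with 0 called lower, beside 0.0373%, 0% and 0.0224% of all features called higher. With the replicate block within vehicle sets 16, 1 and 5 were called higher. At an unadjusted p of at most 0.05, 26, 19 and 25 were higher, beside 2.8%, 1.38% and 0.816% of all features. The list medians were 0.95, 0.53 and 0.63, and 28 of 29 differences were positive in each comparison. This list was written with earlier results of these arrays known.

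The 5 list genes with the highest NP minus DMSO were INHBE, ULBP1, CHAC1, CTH and NUPR1. INHBE, which encodes an inhibin beta subunit, differed by 2.42 with NP (adjusted p 0.0542), 1.37 with metformin and 1.46 with phenformin, and was above background on 1 of 3 DMSO arrays. ULBP1, which encodes a ligand of a natural killer cell receptor, differed by 2.14, 1.29 and 1.17, and was above background on 2 of 3 DMSO arrays. With normexp the NP difference was 0.81 for INHBE and 0.81 for ULBP1, below CHAC1 (1.76) and CTH (1.74), so the order of the 5 rests on the background correction. CHAC1, which encodes an enzyme that degrades glutathione, differed by 1.83, 2.14 and 2.40, the last with an adjusted p of 0.0406. CTH, which encodes the cystathionine lyase that makes cysteine, differed by 1.75, 0.90 and 1.22. NUPR1, a stress-induced nuclear protein gene, differed by 1.69, 1.48 and 1.58, and passed with NP (adjusted p 0.0295) and with phenformin (adjusted p 0.0406). With the replicate block within vehicle sets, INHBE (adjusted p 0.0386), CHAC1 (0.0301) and CTH (0.0133) also passed with NP, and NUPR1 passed with metformin (0.0489). The called list genes lost their calls when any of the 3 replicates was left out.

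For likeness over arrays, the mean of each replicate number within each vehicle set was removed (6 means), and Pearson's r was taken over the 15 arrays with 13869 genes above background on all arrays. These values describe the arrays on which the transcripts were chosen, and arrays share treatments, so no p is given. PCK2, the gene of mitochondrial phosphoenolpyruvate carboxykinase, was among the 3 most similar genes for lnc-CHADL-1:1 (r = 0.992), lnc-BBC3-1:1 (0.984), lnc-RP11-293M10.1.1-1:1 (0.975) and lnc-RP11-597K23.2.1-2:1 (0.973). The gene most like XR_110828 was ATF4 itself (0.978), followed by the glycine transporter gene SLC6A9 (0.972) and RPS6KA2 (0.971). For lnc-BBC3-1:1 the first was SESN2 (0.988), a stress-induced regulator of growth signalling, and the third KIF21B (0.979). For lnc-CHADL-1:1, ECM2 (0.984) and STC2 (0.982) followed PCK2.

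TCONS_l2_00028188 was most like FLJ43315 (0.989), which RefSeq lists as a transcribed pseudogene, and then like the asparagine synthetase gene ASNS (0.985) and SLC6A9 (0.984). lnc-RP11-597K23.2.1-2:1 was most like the noncoding RNA LINC00662 (0.976), then CTH (0.975). lnc-RP11-293M10.1.1-1:1 was most like ANKFN1 (0.985) and RHBDD1 (0.975). The remaining pair had lower values, but lnc-EXOC2-9:1 was above background on only 3 of the 15 arrays and lnc-RNF13-2:1 on 10, so part of each pattern is background. The most similar genes were IFRD1 (0.944), SNORD116-27 (0.925) and ALDH5A1 (0.917) for lnc-EXOC2-9:1 and TPTE2P6 (0.931), ARHGAP11A (0.908) and IGFN1 (0.907) for lnc-RNF13-2:1.

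Against 27 genes of the ATF4 list, the median r was 0.92 to 0.95 for 6 transcripts, 0.76 for lnc-EXOC2-9:1 and 0.48 for lnc-RNF13-2:1, while the median over all 13869 genes was -0.11 to -0.04. Removing the means leaves mainly the differences between treatment and vehicle, by which the transcripts were chosen. The list was also written with earlier results known. High r was thus favoured in advance, and no link to ATF4 is read from it. ATF5 was the list gene with the lowest r for each of the 8, from -0.84 to -0.40. Between transcripts r reached 0.98, for lnc-CHADL-1:1 with lnc-RP11-597K23.2.1-2:1 and with lnc-BBC3-1:1, and was lowest, at 0.20, between lnc-RNF13-2:1 and TCONS_l2_00028188.

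**Figure D4:**
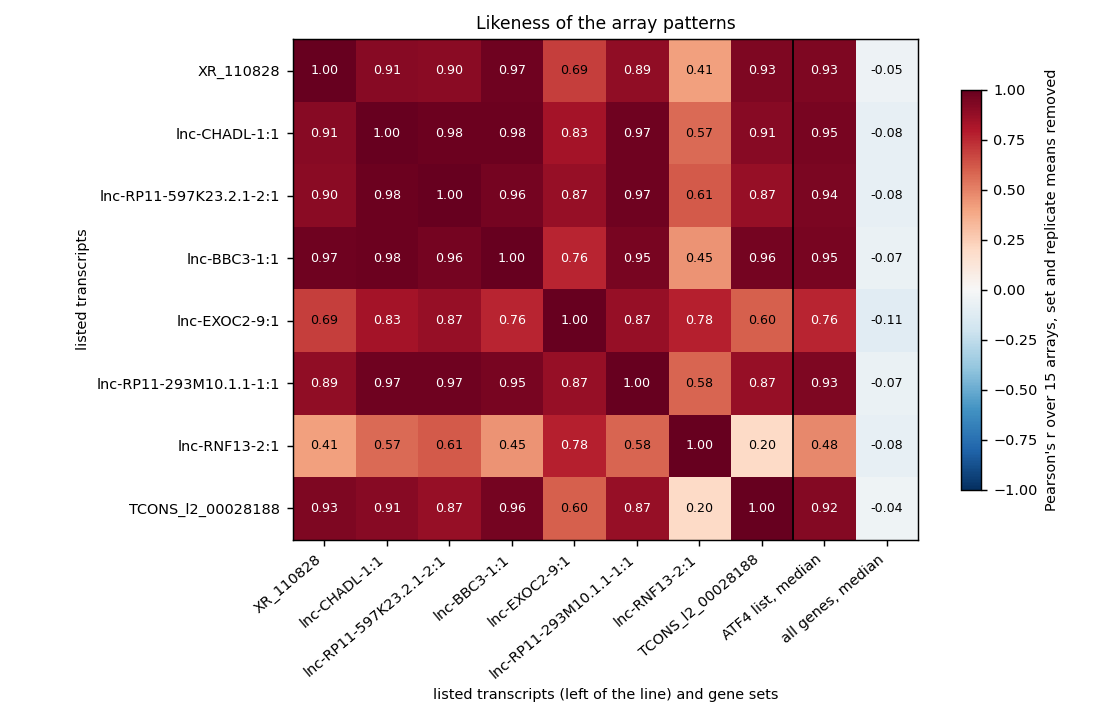
Pearson's r between the array patterns of the 8 transcripts (rows and first 8 columns), and the median r of each with the ATF4 list and with all genes above background (last 2 columns), over 15 arrays after the mean of each vehicle set and replicate number was removed; the colour scale runs from -1 to 1. A block of 6 transcripts has r of 0.87 to 0.98, and lnc-RNF13-2:1 has r of 0.20 to 0.78 with the rest. The transcripts were chosen by their differences from vehicle on these arrays, which favours high r in advance.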

How the data were processed

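The authors extracted spot intensities with Agilent Feature Extraction (version 9.1 per the labels, 10.7.3.1 per the file headers), background-subtracted and not normalized between arrays, and also deposited their own normalized log2 table (floored, 75th percentile scaling), an alternative here. Array probe design was hg19. Control spots were dropped, outlier spots set missing, spots of a probe averaged and the log2 75th percentile of each array subtracted. Among the feature values that entered the fit, 223 of 402360 were missing. The filter kept 32912 of 58201 probes, those above background throughout a group of 3 arrays, and the probe with the highest mean stood for each gene. Features needed values on at least 8 arrays. No spot was saturated. Of 33080 probes with a RefSeq accession, 31104 were named through the RefSeq table. The precision is limited by 3 arrays per group.

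Groups came from the labels. The fit over 15 arrays used limma 3.58.1 in R 4.3.3, with 5 groups, the replicate number as a block and Benjamini-Hochberg adjustment, and was tested on simulated data. Same-numbered arrays deviated together within a vehicle set (r of 0.22 to 0.86) but not across sets (-0.19 to 0.23), so a block within sets was an alternative. Python 3.11.15, pandas 2.3.3, numpy 2.4.6 and matplotlib 3.10.9 were also used. The transcripts and lists were chosen with earlier results of these data known. Genes named were the 8 transcripts, the genes in and around their names, the 3 most similar genes of each, the 5 ATF4 list genes with the highest NP minus DMSO, and the features without a symbol next in order. Alternatives changed the block, slide, background correction, normalization, filter, probe choice, samples and test, and left out each replicate. No sequence of the probes was used here.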

Additional observations from a re-analysis of the deposited data

Results flagged for a closer look

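In 3 features all replicate pairs were higher in one comparison and all lower in another. The search set NP against each biguanide. It covered the 8 transcripts, other fitted probes that share a gene name with them, 24 neighbours and 29 ATF4 list genes. The share over all features was not computed, so nothing is read from the count. For lnc-RNF13-2:1 the log2 intensities differed by 1.34 with NP and by -0.51 with phenformin, 1.84 apart. The NP value is no measured difference, since 0 DMSO arrays and 1 NP array were above background, and it was 0.11 with normexp and 0.09 in the authors' table. The phenformin value was -0.09 with normexp and -0.25 in the authors' table. The gap between the contrasts was not tested, as both served to choose the transcript. lnc-CHADL-2:1 differed by 0.42 with NP and by -0.11 with metformin, 0.53 apart (limma, unadjusted p 0.0848, adjusted p 1), and by -0.48 with phenformin, 0.90 apart (unadjusted p 0.00857, adjusted p 1). LOC646903, near RNF13, differed by 0.12 with NP and by -0.33 with metformin, 0.45 apart (unadjusted p 0.0698, adjusted p 1).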

How the results depend on the processing

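The median NP minus DMSO of the transcripts was 0.73 with normexp background correction and 1.13 over the 3 above background on all 15 arrays, and the median PHEN minus W was 0.39 with normexp. The methods' t-test, unadjusted, called 3 transcripts for metformin, beside 124 of all 26824 features. That count is not free of the choice, as phenformin shares the water arrays. With metformin, the difference of lnc-RNF13-2:1 was 0.06 with normexp and -0.15 to 0 without 1 replicate (0 without replicate 3), and that of lnc-EXOC2-9:1 -0.09 to 0.74 (lowest without replicate 2). With phenformin that of lnc-EXOC2-9:1 was -0.35 to 0.62 (lowest without replicate 3). In the authors' table, which has a floor, NP minus DMSO was 1.56 for lnc-EXOC2-9:1 and 0.09 for lnc-RNF13-2:1. Every other transcript kept its direction in all settings, and for metformin the lowest adjusted p by limma over the 8 was 0.0672, for XR_110828 with slide as a term.

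The count of features called for NP was 3 with no replicate block, 52 with the block within vehicle sets, 63 with slide, 26 with normexp, 17 with quantile normalization, 26 with probes above background on all arrays, 19 with the 75th percentile over those probes (chosen after seeing the data), 214 by the methods' t-test unadjusted, and 0 with no filter, only the groups compared, the t-test adjusted, or without any 1 of replicates 1 to 3 (703 to 1525 at an unadjusted p of at most 0.05). For metformin it was 2 with the block within sets, with slide and with normexp, and 124 by the unadjusted t-test. For phenformin it was 16 with slide, 4 with the other percentile, 168 by the unadjusted t-test, and 0 with no block, no filter, only the groups compared, the adjusted t-test or without any replicate (379 to 1309 unadjusted). ATF4 list calls for NP were 1 with no block, 16 with the block within sets, 19 with slide, 12 with normexp, 10 with quantile, 12 with probes above background on all arrays, 9 with the other percentile, 19 by the unadjusted t-test, and 0 with no filter, the groups compared, the adjusted t-test or without any replicate (20 to 27 unadjusted). For metformin they were 1 with the block within sets and with slide, 2 with normexp and 11 by the unadjusted t-test. For phenformin they were 16 by the unadjusted t-test and 0 with no block, no filter, the groups compared, the adjusted t-test or without any replicate (17 to 22 unadjusted). The block within sets changed no call of the 8 for metformin.

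For the neighbours, of which 0 were called under any setting run, leaving out 1 replicate gave, with NP, -0.06 to 0.13 for EXOC2, -0.01 to 0.14 for RNF13 and -0.63 to 0.74 for lnc-CHADL-1:2. With metformin it gave -0.12 to 0.01 for HUS1B and -0.54 to 0.02 for C5AR1. With phenformin it gave -0.22 to 0.04 for RNF13, -0.13 to 0.06 for HUS1B, -0.05 to 0.58 for C5AR1 and -0.24 to 0.19 for lnc-CHADL-1:2. Normexp gave -0.06 for EXOC2 with NP, 0.06 for C5AR1 with metformin and 0.04 for lnc-CHADL-1:2 with phenformin. Quantile normalization gave 0.23 for lnc-CHADL-1:2 with NP and, with phenformin, 0.30 for it and 0.03 for HUS1B. The authors' table gave 0 for lnc-CHADL-1:2 with metformin and -0.01 for C5AR1 with phenformin, and the mean of its probes 0 for RNF13 with NP. The causes of these changes were not tested.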
